A study of Homo sapiens with 2 samples.

Results

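The MYC and PVT1 locus was taken as every ATAC-seq peak on chromosome 8 between 1 Mb upstream of the MYC start and 1 Mb downstream of the PVT1 end (hg38, chr8:126735434-129187101, 2452 kb). It held 146 of the 74757 peaks called in the No gRNA library and 147 of the 75217 peaks called in the All gRNA library. Both libraries came from SUM159, an established triple-negative breast cancer cell line, transduced with pLV-KRAB, a lentiviral vector for dCas9-KRAB. dCas9-KRAB is a Cas9 without cleavage activity that carries the KRAB repressor domain. The No gRNA cells carried the vector without a targeting guide (empty vector control), and the All gRNA cells carried it together with 4 guides to the promoter of ZEB1, on chromosome 10. No guide was directed at chromosome 8. Each group was 1 library of transduced cells, so no test between the conditions was possible, and differences are between these libraries.

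MYC encodes a basic helix-loop-helix leucine zipper transcription factor that binds DNA as a dimer with MAX and acts broadly on genes of growth, ribosome production and metabolism. PVT1 is the long non-coding RNA gene that follows it on the same strand, and the gene desert around both is known for distal enhancers of MYC and for frequent copy number gain in breast and other cancers. Open chromatin at such enhancers and promoters is what the Tn5 transposase of ATAC-seq reaches.

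Each peak is described by its width, by its summit pileup (the reads stacked at its highest point, solved from the deposited fold and −log10 p), by the local background (the mean read density around it that the caller set the summit against) and by the fold, the ratio of pileup to background, with 1 added to each, as the authors' caller wrote it. The depth of the All gRNA library was 0.743 times that of the No gRNA library, and pileups were compared after division by this number. Values given as a pair are pileups or other values as recovered, No gRNA first and All gRNA second. The recovered depths were 8.80e+06 and 6.54e+06 read ends. A ratio is All gRNA over No gRNA, and the range in parentheses after it is its 95% interval, exact for the 2 counts. Such intervals cover counting error only, and since both ends of a fragment can fall in 1 pileup they are narrower than the full uncertainty. As a check of the labels, the No gRNA library had 2 peaks within 4000 bp of the main ZEB1 start site, with pileups of 25 and 27, and the All gRNA library had none there. Promoter peaks were present in both libraries at all 5 mesenchymal markers examined (VIM, CDH2, SNAI2, ZEB2 and CD44). Of 5 epithelial markers, 3 had a promoter peak in No gRNA and 1 (EPCAM) in All gRNA, with pileups of at most 17. PTPRC and ALB had none in either library, and PECAM1 had 1 in both.

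The locus was dense with strong peaks in both libraries. The peak density was 59.6 per Mb in No gRNA and 60.0 in All gRNA, against 22.5 and 22.8 on the rest of chromosome 8. The median summit pileup was 62 without and 59 with guides, where the medians over chromosomes 1 to 22 and X were 19 and 14. The highest pileup, 2181 in No gRNA against 1407 in All gRNA, was above the highest outside the locus on chromosomes 1 to 22 and X, 1050 and 667. The peaks covered 74842 bp in No gRNA and 67608 bp in All gRNA. The median width was 377.5 bp in No gRNA and 346 bp in All gRNA, and genome-wide the medians were 342 and 317 bp.

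By zone, 77 No gRNA and 80 All gRNA peaks lay upstream of the MYC promoter. The MYC promoter and gene held 3 and 3, and the 47.6 kb between MYC and PVT1 held 4 and 4. The PVT1 promoter and gene held 49 and 51 peaks, and the 1 Mb downstream of PVT1 held 13 and 9. PVT1 thus had 124 peaks per Mb in No gRNA and 129 in All gRNA, while the downstream flank had 13 and 9. In No gRNA 111 peaks were intronic, 17 exonic and 18 intergenic, and in All gRNA 104 were intronic, 21 exonic and 22 intergenic. A start site of some annotated gene lay within 4000 bp of 47 No gRNA peaks (32.2%) and 52 All gRNA peaks (35.4%). The others, 99 and 95, were distal.

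**Figure D1:**
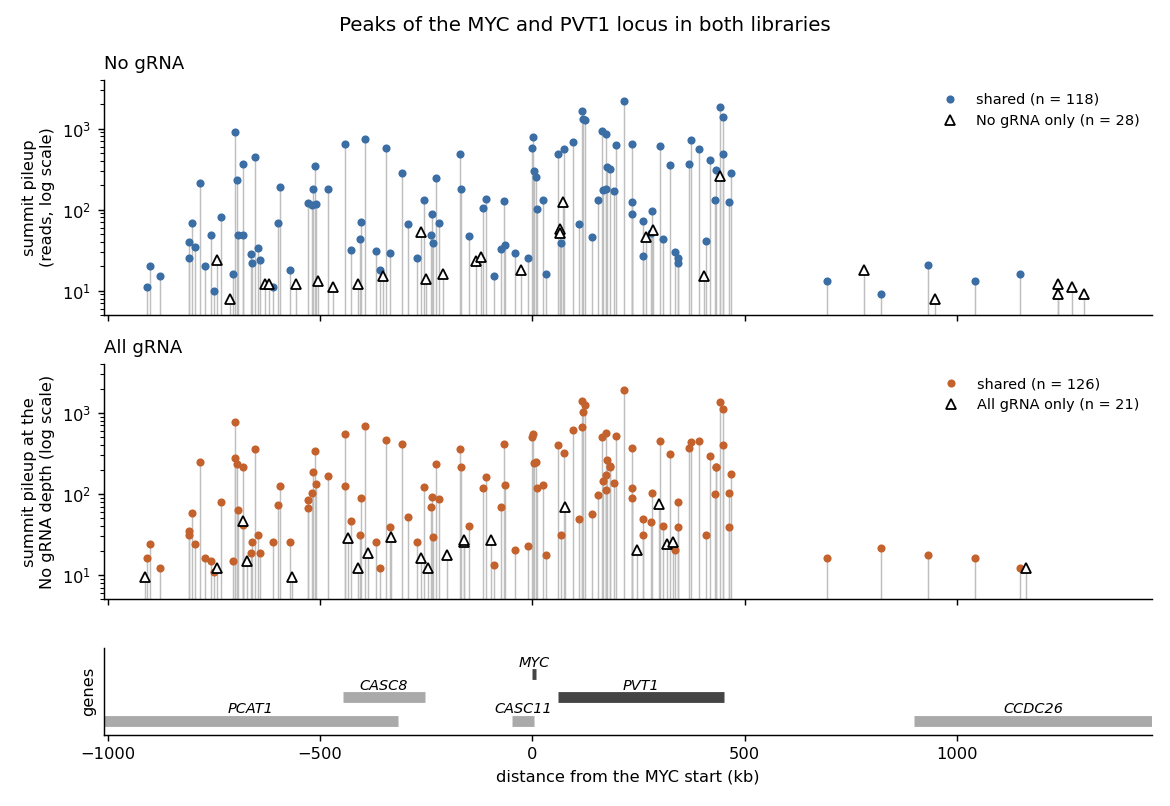
Summit pileup of each peak (y axis, reads, log scale, All gRNA values divided by the depth ratio of 0.743) against its distance from the MYC start in kb, with bars for 6 genes of the locus underneath. Filled circles are peaks with a counterpart in the other library and open triangles are peaks of 1 library (28 in No gRNA, 21 in All gRNA), most of which sit low, and a stretch of 226 kb without a peak follows PVT1 in both libraries.

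Many of the strongest peaks of chromosomes 1 to 22 and X lay here, peaks on other sequences in the lists being left out. Of the 100 such peaks with the highest −log10 q in each list, 26 in No gRNA and 26 in All gRNA fell in the locus, which held 0.215% of the peaks. By summit pileup the number was 30 in No gRNA and 31 in All gRNA. By fold, which divides by the local background, it was 1 in each. The median fold of locus peaks was 7.05 in No gRNA and 6.74 in All gRNA, below the genome-wide medians of 8.51 and 7.50.

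MYC (ENSG00000136997.22, plus strand, chr8:127735434-127742951) had 4 peaks within 4000 bp of its 14 annotated start sites in each library, each with its counterpart in the other library. The main peak, chr8:127735174-127736547 in No gRNA, spanned 9 of these start sites and its summit was 39 bp from the main one. Its pileup went from 777 without guides to 406 with them, a ratio of 0.703 (0.622 to 0.794). Its width was 1374 bp in No gRNA and 1448 bp in All gRNA, so that the peak was lower and slightly wider in the library with guides. Its fold was 8.80 in No gRNA and 8.09 in All gRNA, and the −log10 q was 435 and 214. A second peak at chr8:127734071-127734433, in the shared promoter of MYC and CASC11 (an antisense long non-coding RNA), had pileups of 580 and 376, a ratio of 0.872 (0.764 to 0.995). Another, exonic at chr8:127737771-127738072, had pileups of 297 and 177 with a ratio of 0.802 (0.662 to 0.969). The last, chr8:127743055-127743645, lay just past the gene's end, 3982 bp from the nearest start site, and was counted above with those between MYC and PVT1. It had pileups of 251 and 184 and a ratio of 0.986 (0.811 to 1.20). All 4 ratios were below 1, and the intervals of 3 lay below 1. Strong peaks were mostly lower in All gRNA across the genome. Outside the locus, 80.5% of the pairs in the strongest of 10 classes of summed pileup had a ratio below 1. An interval below 1 was found in 25.3% of them. That class begins at a summed pileup of 160, and intervals narrow as counts grow, so this share is not at like counts. Relative to the median of that class 2 of the 4 MYC ratios were below 1, and 1 interval, that of the main peak (0.822, 0.727 to 0.928), lay below 1.

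Among protein-coding genes with a promoter peak, the strongest MYC peak ranked 2 of 14830 by pileup in No gRNA and 3 of 14758 in All gRNA. By the background around the peak it ranked 1 in both. By fold it ranked 12440 and 11957, well below the median gene, whose fold was 14.7 in No gRNA and 12.8 in All gRNA. The protein-coding genes whose strongest promoter peaks were most like it, by Euclidean distance over log2 depth-scaled pileup and log2 width in 2 libraries, were IRX2, EEF2KMT, RRM2B, FAM86B2 and FAM86B1. IRX2, a homeobox gene, was nearest, at a distance of 0.878, with pileups of 1050 and 667 and widths of 1222 and 1260 bp. Its ratio was 0.855 (0.775 to 0.943). The other 4 were at distances of 1.07 to 1.21, with No gRNA pileups of 433 to 587. Their ratios ran from 0.792 (0.681 to 0.920) at EEF2KMT to 0.951 (0.829 to 1.09) at FAM86B1. All 5 ratios were above that of MYC, but the intervals of IRX2, EEF2KMT and RRM2B overlapped that of MYC. The pileups of both libraries were used to pick these genes, so their ratios are not a separate comparison.

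PVT1 (ENSG00000249859.14, plus strand, chr8:127794526-128187101) has 132 annotated start sites spread along most of its 393 kb. Within 4000 bp of one of them lay 15 peaks in No gRNA and 18 in All gRNA, but 1 in each library at the main start site. That peak, chr8:127793989-127795508 in No gRNA, had pileups of 484 and 295 and widths of 1520 and 1300 bp, with a ratio of 0.820 (0.707 to 0.950). In No gRNA it spanned 72 start sites. By −log10 q the strongest peak at a start site inside the gene was chr8:127859608-127860505, exonic, with pileups of 1279 and 923 and a ratio of 0.971 (0.891 to 1.06). The peak at chr8:127853993-127854956 held 9 start sites and had pileups of 1322 and 768. The highest pileup at a PVT1 start site, 1651 without guides, was at chr8:127851538-127853308, which All gRNA split into 2 peaks, the higher with a pileup of 1029. The lowest shared one, at chr8:127995297-127995511, had pileups of 27 and 23. Of the 11 PVT1 promoter peaks with a single counterpart, 10 were lower in All gRNA, and the intervals of 6 lay below 1. The ratios ran from 0.624 to 1.15. Relative to the medians of their strength classes 8 of the 11 were below 1, 3 intervals lay below 1 and 1 above it. On that scale the main start peak was at 0.959 (0.827 to 1.11) and the peak at chr8:127859608-127860505 at 1.14 (1.04 to 1.24). Of the PVT1 promoter peaks, 1 was called in No gRNA only (chr8:127799655-127799854, pileup 58) and 2 in All gRNA only (chr8:127980671-127980870, pileup 15, and chr8:128051239-128051456, pileup 18). All 3 were among the weaker of their set, with −log10 q of 7.80, 3.87 and 4.75.

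The 10 shared peaks with the highest mean −log10 q lay 8 in PVT1 and 2 upstream of MYC. On chromosomes 1 to 22 and X the peak with the highest −log10 q in both lists was an intronic PVT1 peak at chr8:127949346-127950421, 214 kb from the MYC start and within 4000 bp of a start site of the non-coding gene LINC02912. Its pileups were 2181 without and 1407 with guides, its folds were 23.5 and 22.8, and its ratio was 0.868 (0.811 to 0.929). Near the far end of PVT1, chr8:128176544-128177613 had pileups of 1826 and 1027 (ratio 0.757, 0.700 to 0.817) and chr8:128183158-128183813 had 1405 and 826 (0.791, 0.725 to 0.863). The lowest ratios among these 10 were also in PVT1 introns. The peak at chr8:127898896-127899937 had pileups of 923 and 377, a ratio of 0.550 (0.486 to 0.620), and that at chr8:128108940-128109522 had 731 and 325, a ratio of 0.598 (0.523 to 0.683). The intronic peak chr8:127831353-127832178 (681 and 458) had a ratio of 0.905 (0.802 to 1.02). Upstream, chr8:127339949-127340562, 395 kb before MYC and exonic in the long non-coding RNA gene PCAT1, had 735 and 512 and a ratio of 0.937 (0.836 to 1.05), with the highest folds of the 10, 31.9 and 30.4. The other upstream peak, chr8:127034883-127036336, had pileups of 902 and 575 and was split in All gRNA. All 8 of these peaks with a single counterpart had ratios below 1, and 5 had intervals below 1. All 8 were in the strongest class, where 80.5% of pairs outside the locus were lower, and relative to its median 4 of the 8 were below 1, with 3 intervals below 1 and 1 above. The ratios of these 8 ran from 0.550 to 0.971, and whether they differ from one another was not tested.

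The local background was itself high. It was expressed relative to the lowest background of each library, which the caller uses where it finds no local enrichment of reads. Its median over locus peaks was 12.3 in No gRNA and 14.0 in All gRNA, where the medians over all peaks were 1.84 and 1.73 and the 99th percentiles 17.7 and 15.2. The highest values, 348 and 272, were at PVT1. The high values formed 1 stretch. It ran from the first summit 809 kb upstream of the MYC start to the last one 467 kb downstream of it. None of its 132 No gRNA or 137 All gRNA peaks was at the lowest background. Over chromosomes 1 to 22 and X 22.2% and 24.4% of peaks were. The lowest values of the stretch, 1.53 and 1.73, were no higher than the medians over all peaks. The median there was 15.4 in No gRNA and 15.8 in All gRNA. The 3 No gRNA and 4 All gRNA peaks farther upstream were at 1.00 to 1.65. After a gap of 226 kb without a peak, the 11 No gRNA and 6 All gRNA peaks farther downstream were at 1.00 to 1.24, with pileups of at most 21. The bounds of this stretch were chosen after its values were seen.

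Set against the rest of the genome in bins of 1 Mb with at least 20 peaks, chr8:127000001-128000000 had the most peaks, 99 in No gRNA and 103 in All gRNA, of 1652 and 1711 bins. It also had the highest median pileup, 82 and 68, and the highest 10th percentile of the background, 4.02 and 4.53. In bins outside the locus the highest median pileup was 79 and 44.5, and the highest 10th percentile was 3.13 and 2.94. By median background this bin and the next, chr8:128000001-129000000, held the first 2 ranks in both libraries, with 15.6 and 13.8 in No gRNA and 15.8 and 20.6 in All gRNA, against at most 7.89 and 6.61 in any bin outside the locus. The background near a peak rises with its own reads and those of neighbouring peaks, as well as with the number of DNA copies. The files used here hold no input library for these cells, so a gain of copies in these cells and a greater openness of the stretch cannot be told apart here.

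**Figure D2:**
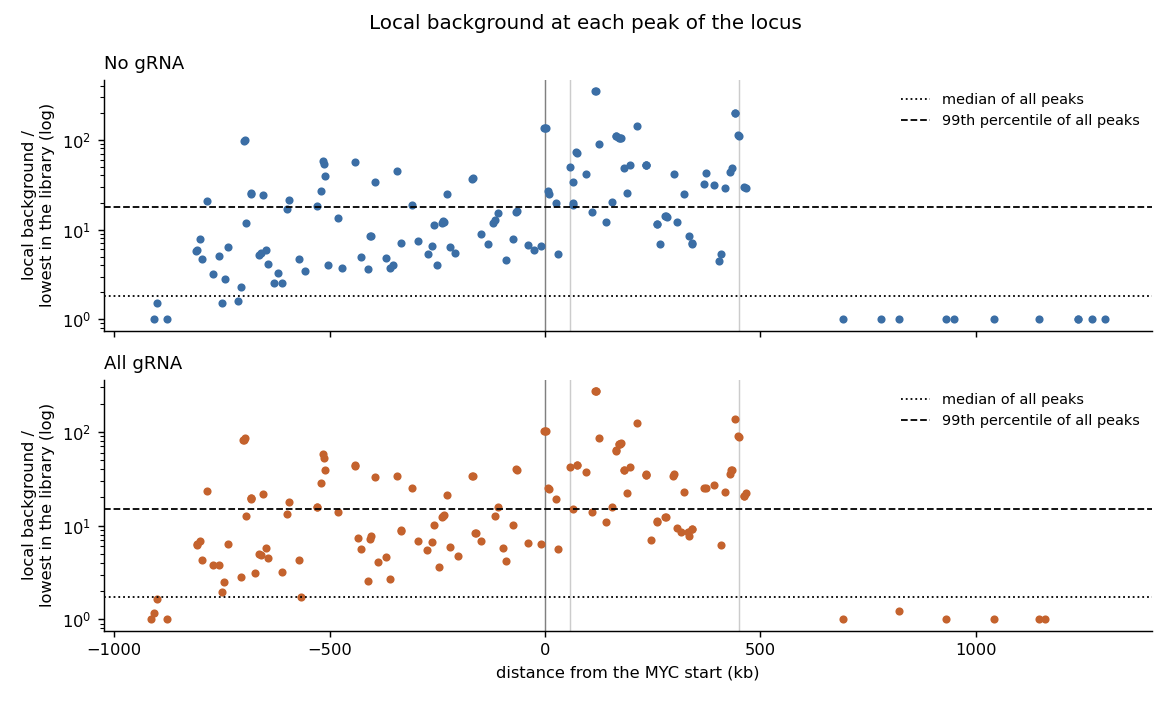
Local background at each locus peak divided by the lowest background of its library (y axis, log scale) against distance from the MYC start in kb, for each library, with the genome-wide median (dotted) and 99th percentile (dashed). The dark vertical line is the MYC start and the light lines bound PVT1, and values stay above 1 from 809 kb upstream to 467 kb downstream and drop to 1.00 to 1.24 beyond the gap.

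Most peaks of the locus were found in both libraries. Of the No gRNA peaks, 28 had no counterpart in All gRNA, 19.2% (95% binomial interval, Clopper-Pearson, 13.1 to 26.5), against 24.7% of No gRNA peaks over chromosomes 1 to 22 and X. Of the All gRNA peaks, 21 had none in No gRNA, 14.3% (9.07 to 21.0), against 23.8%. The one-library peaks were weak, with a median pileup of 15 in each library, where shared peaks had medians of 103.5 and 76. With a −log10 q of at least 10, the numbers were 9 of 110 in No gRNA (8.18%) and 1 of 102 in All gRNA (0.980%). Over chromosomes 1 to 22 and X the shares at this threshold were 9.24% and 5.14%, so that of No gRNA was near the share of all peaks.

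The strongest No gRNA only peak, chr8:127472385-127472804, lay in an intron of the long non-coding RNA gene CASC8, 263 kb upstream of MYC. Its pileup was 53 and its −log10 q 35.9, and at the All gRNA depth it would have been 39.4 against a call limit of 10. The next were the PVT1 intron peaks chr8:128002597-128002972 (pileup 46, −log10 q 27.7), chr8:128018836-128019158 (56, 23.3) and chr8:128175777-128175980 (257, 20.1), the last beside one of the 10 strongest shared peaks and with a fold of 1.98. The fifth, chr8:128514879-128515162 (18, 18.2), was downstream of PVT1. The strongest All gRNA only peak was chr8:128032756-128033071, in a PVT1 intron, with a pileup of 56 and a −log10 q of 11.5. It was followed by 3 upstream peaks, chr8:127638315-127638529 (pileup 20, −log10 q 8.93), chr8:127300839-127301066 (21, 7.90) and chr8:127053344-127053589 (35, 7.76), and by chr8:128897010-128897258 downstream (9, 7.42). By −log10 q the strongest of the All gRNA only peaks was thus below all 5 named for No gRNA. However, −log10 q grows with depth, and All gRNA was the shallower library. By pileup, at 56, that peak was below only chr8:128175777-128175980 (257).

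In 8 places a single No gRNA peak met 2 All gRNA peaks, and in none was it the other way round. Over chromosomes 1 to 22 and X, 2.42% of No gRNA peaks met several All gRNA peaks and 1.12% of All gRNA peaks met several No gRNA peaks. The widest of the 8 was the 1771 bp PVT1 peak at chr8:127851538-127853308, and the strongest upstream one was the 1454 bp peak at chr8:127034883-127036336. Summed over both pieces the All gRNA widths were 1707 and 1291 bp.

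Ratios could be given for 110 pairs of peaks with 1 counterpart each. The summits of 87 pairs lay within 50 bp of each other. The ratio ran from 0.302 to 3.61, with a median log2 ratio of −0.16, and 72 pairs (65.5%) were lower in All gRNA. Over all 48041 pairs of the genome the median log2 ratio was −0.11 and 58.1% were lower. The locus was rich in strong peaks, with 57 of its 110 pairs in the strongest of 10 classes of summed pileup, and the median log2 ratio of that class genome-wide was −0.23. Relative to the median of its own class the median log2 ratio of the locus pairs was 0.03, and 53 of the 110 (48.2%) were below. The strongest class runs from a summed pileup of 160 to 4074, so its median is not that of peaks of like strength. The interval lay below 1 in 27 pairs (24.5%), against 8.85% of all pairs. Of the 57 locus pairs in the strongest class it lay below 1 in 26 (45.6%), against 25.5% of that class genome-wide and 25.3% of it outside the locus. Of the 53 in the other classes it did in 1 (1.89%), against 7.0% outside the locus. In the strongest class the locus reached a pileup of 2181 in No gRNA, against at most 1050 outside it. Intervals narrow as counts grow, so the shares for that class are not at like counts. The median log2 ratio was −0.20 for the 57 and −0.23 for the class outside the locus. The interval lay above 1 in 6 pairs, against 3.42% of all pairs. In 66 pairs (60.0%) the All gRNA peak was narrower, as in 60.7% genome-wide.

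The zones differed in their medians. Of the 38 PVT1 pairs 32 were lower in All gRNA, with a median log2 ratio of −0.30. Of these pairs 27 were in the strongest class, where 80.5% of pairs outside the locus were lower. Relative to the class medians 24 of 38 (63.2%) were below, with a median of −0.08. The local background at these pairs had a median log2 ratio of −0.30. It was drawn from the same library and includes the reads of the peaks, so neither it nor the fold is a separate measurement. The 59 pairs upstream of MYC had a median log2 ratio of −0.07, 32 were lower, and their background had a median log2 ratio of −0.03. The 3 pairs at the MYC promoter and gene had a median log2 ratio of −0.32 and a background of −0.40. Between MYC and PVT1 the median log2 ratio over 4 pairs was 0.06, and over the 6 downstream pairs it was 0.02. With the authors' fold in place of the pileup, which sets each summit against its own background, the median ratio at PVT1 was 0.973. By fold it was 0.967 upstream of MYC and 0.973 over the locus. Over all pairs it was 0.886, and in the strongest class outside the locus 0.917. Whether the peaks or the background of PVT1 set its lower pileup ratios was not tested.

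**Figure D3:**
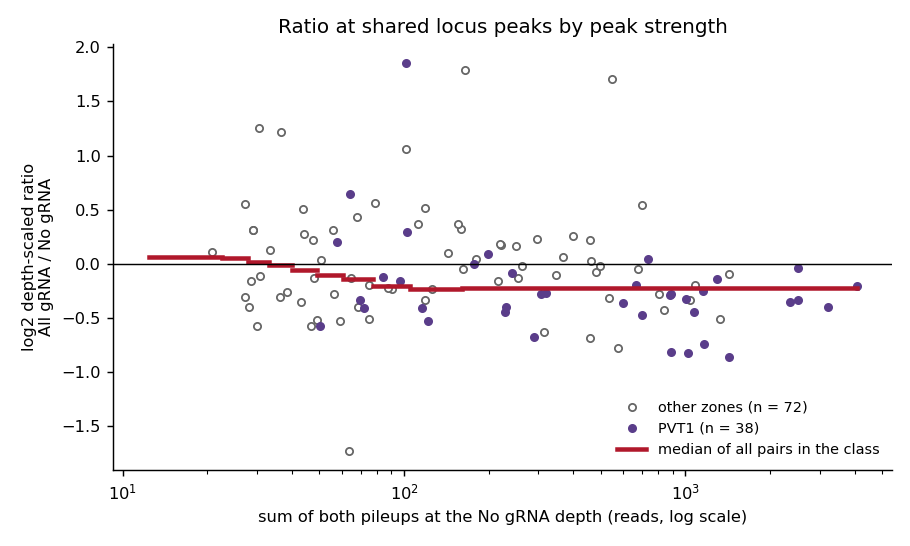
Log2 depth-scaled ratio of the 110 locus pairs (y axis, All gRNA over No gRNA) against the sum of both pileups at the No gRNA depth (x axis, log scale), PVT1 pairs filled and the others open, with the genome-wide median of each of 10 strength classes as red bars. The red bars go from 0.07 in the weakest class to −0.23 in the strongest, and 32 of 38 PVT1 points lie below 0.

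A pair was called when its ratio passed 2-fold and its interval did not hold 1. In the locus 5 pairs were called higher in All gRNA and 1 lower, where 2.44% and 3.27% of all pairs were. The 3 called peaks nearest to MYC sat together 74 to 64 kb upstream of it. The strongest, chr8:127668517-127669287, was an exonic peak inside the long non-coding RNA gene ENSG00000286010, within 4000 bp of its start site. Its pileup went from 128 without guides to 311 with them, a ratio of 3.27 (2.65 to 4.05), and its local background went from 10.2 to 19.3 reads. The peak at chr8:127671029-127671228, 2.11 kb away, had pileups of 37 and 95, a ratio of 3.46 (2.34 to 5.20), and shares that background. It was nearer to the start site of that gene, and its All gRNA counterpart, chr8:127670948-127671228, spanned the site. The peak at chr8:127661398-127661652 had 33 and 51 and a ratio of 2.08 (1.32 to 3.33), at backgrounds of 5.16 and 4.86. The nearest shared peaks on either side, 90.9 and 40.2 kb upstream of MYC, had pileups of 15 and 10 and of 29 and 15, and were not called.

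The other peaks called higher were chr8:128076766-128077172, in a PVT1 intron, and chr8:127125325-127125529, in introns of CASC19 and PCAT1. The first had pileups of 22 and 59, a ratio of 3.61 (2.18 to 6.19), with backgrounds of 4.54 and 4.46, and its fold went from 4.15 to 11.0. It was the highest ratio of the locus. The second had pileups of 11 and 19 and a ratio of 2.32 (1.05 to 5.41), an interval that nearly reaches 1. The peak called lower, chr8:126977420-126977945, lay in a PCAT1 intron 758 kb upstream of MYC. It had pileups of 49 and 11 and a ratio of 0.302 (0.142 to 0.589), and its width went from 526 to 200 bp. By the authors' fold 1 pair, the PVT1 intron peak at chr8:128076766-128077172, was past 2-fold higher and 1 past 2-fold lower. The 3 peaks 74 to 64 kb upstream of MYC were not, with ratios of their folds of 1.61, 1.33 and 1.44 in order of position.

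**Figure D4:**
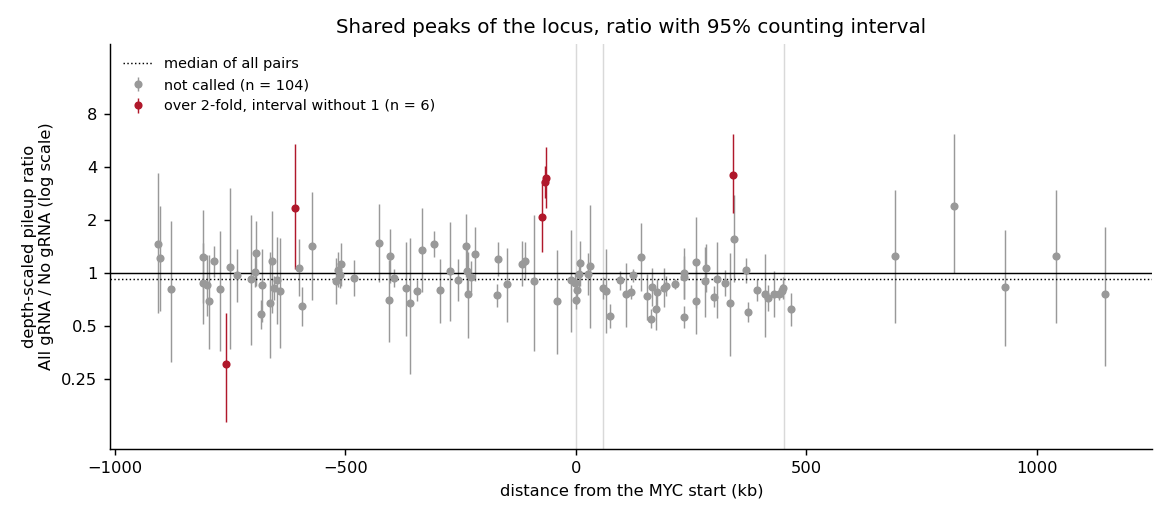
Depth-scaled pileup ratio of the 110 pairs (y axis, log scale, bars are 95% counting intervals) against distance from the MYC start in kb, with called pairs in red, the genome-wide median dotted and light lines at the MYC start and both ends of PVT1. The 3 red points just left of MYC are those 74 to 64 kb upstream, and most PVT1 points lie below 1.

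GENCODE places start sites of 29 genes in the window. A promoter peak was present in both libraries for 21 of them, in neither for 6, in No gRNA only for none and in All gRNA only for 2 (ENSG00000286266 and MIR1207, pileups 20 and 18). The share with peaks in both was 72.4% of these 29 genes and 71.3% of protein-coding genes. Of protein-coding genes 2.92% had a peak in No gRNA alone and 2.56% in All gRNA alone. Most of the 29 are not protein-coding, and some have many start sites, as PVT1 with 132. The protein-coding shares given here are thus not those of like genes. The 21 were MYC, PVT1, CASC11, PCAT1, CASC19, PRNCR1, CASC8, CCAT2, LINC02912, LINC00824, CCDC26, POU5F1B, MIR1204, MIR1208, RNVU1-32 and 6 genes without a symbol (ENSG00000224722, ENSG00000287781, ENSG00000271509, ENSG00000286010, ENSG00000278324 and ENSG00000278275). Some share peaks, as CASC11 does with MYC and MIR1204 with PVT1. CCDC26 had its promoter peaks beyond the window, at a start site outside it, and none inside. MYC and POU5F1B, a retrogene of the pluripotency factor POU5F1, were the protein-coding ones. The POU5F1B peaks, with pileups of 12 and 9, did not overlap each other. Of the 18 genes with a ratio, 1 was called higher (ENSG00000286010) and none lower, where 0.512% and 2.91% of protein-coding genes were.

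Genes that encode MYC partners and regulators, and textbook targets of MYC, were examined through their promoters. Of the 32, 30 (93.8%) had promoter peaks in both libraries, against 71.3% over protein-coding genes. They were 19 of the 20 partners and regulators and 11 of the 12 targets. TERT, the catalytic subunit of telomerase, had one in No gRNA only, with a pileup of 20, and MYCN, a MYC paralog, had none in either. Of the 28 with a ratio, none was called and none had an interval above 1, as 1.61% of protein-coding genes had. The intervals of 6 lay below 1, those of MAX, MXD4, AURKA, ODC1, LDHA and HSPD1, and 17.6% of protein-coding genes had such an interval. The median ratio of the list was 0.811, against 0.851 over all protein-coding genes. Across the genome ratios fell with peak strength, and 25.5% of all pairs in the strongest class had an interval below 1. The list was not set against peaks of like strength. MAX, the dimer partner of MYC, had pileups of 161 and 91 and a ratio of 0.761 (0.582 to 0.990). LDHA, lactate dehydrogenase A, had the lowest of these 6, with pileups of 175 and 79 and a ratio of 0.607 (0.460 to 0.797). At ODC1, the rate-limiting enzyme of polyamine synthesis, and at AURKA, a mitotic kinase, the pileups were 158 and 81 each. CDK4, a cell cycle kinase, was level, with 186 and 138 and a ratio of 0.998 (0.795 to 1.25).

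The letters of short motifs were searched on both strands within 100 bp of each summit. The AP-1 motif TGANTCA was in 34.2% of No gRNA and 32.7% of All gRNA locus peaks, against 30.3% and 31.2% of all peaks. The TEAD motif GGAATG was in 17.1% and 17.0%, against 14.6% and 14.1%. CAGGTG, the E-box that ZEB1 binds, was in 11.0% and 10.9%, against 11.6% and 13.1%. CACGTG, the E-box of MYC with MAX, was in 2.05% and 0.680%, against 3.83% and 3.71%. The CTCF core motif was in 0.685% of No gRNA locus peaks, against 3.66% of all No gRNA peaks. It was in 0 of 147 All gRNA peaks, which allows up to 2.48% (Clopper-Pearson), against 3.26% of all All gRNA peaks. The one No gRNA locus peak with it was the CASC8 intron peak at chr8:127472385-127472804, the strongest that All gRNA lacked. None of these letters was in the window of the main MYC peak. The PVT1 intron peak with the highest ratio held TGANTCA 2 times and CAGGTG once. The median GC content of the windows was 44.8% and 45.8%, against 48.3% and 47.8% of all peaks.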

How the data were processed

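ATAC-seq peak lists of 2 SUM159 libraries (No gRNA, All gRNA, 1 each) were analysed. The authors used fastp for trimming, bowtie2 for mapping to hg38, SAMtools for the removal of duplicates, and MACS2 for peaks, per library and without a control (shift of -75 and extension of 150 bp). Mitochondrial reads and reads in the ENCODE exclusion list were also removed. Tool versions are not given in the sources used here. The deposited lists hold for each peak a fold (ratio), −log10 p, −log10 q and a score, which was not used. Whole-number pileups and local backgrounds were solved from the deposited fold and −log10 p in 100% of peaks, a step tested on simulated data. The shortest peaks fit a window of 200 bp, which was used for the depths. The depth ratio came from the lowest backgrounds and does not depend on it.

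Peaks were shared with an overlap of at least 1 bp. Ratios used pairs with 1 counterpart each, with exact conditional binomial (Clopper-Pearson) intervals. Start sites were those of GENCODE 44, promoters 4000 bp either side, as in the study. Named were promoter peaks of MYC and PVT1, the 10 strongest shared peaks, the 5 strongest one-library peaks per list, called pairs, genes of the window with a promoter peak, network genes that were called or in 1 list, MAX, and the 5 genes most like MYC. Other peaks and genes were named after their values were seen. The locus, lists and thresholds were chosen with earlier results of these data known. Alternatives were stricter −log10 q, other overlaps, flanks, promoter lengths and scalings. No test was possible with 1 library per group, and no sequence of the locus is printed. One marker of other lineages is not reported here. Python 3.11.15, NumPy 2.4.6, pandas 2.3.3, SciPy 1.17.1, pysam 0.24.0 and matplotlib 3.10.9 were used.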

Additional observations from a re-analysis of the deposited data

How the results depend on the processing

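Of 113 values recomputed under an alternative, 78 stayed within 1.5 times the reported count or inside the interval of the reported value. The other 35 moved. The ratios at the main start sites of MYC and PVT1 stayed below 1 under each scaling. The median log2 ratio of the pairs changed sign with the median of the strength class set to 1. No paired analysis was possible because there was a single library per condition.

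Without flanks, from the MYC start to the PVT1 end, 55 No gRNA peaks covered 34253 bp and 57 All gRNA peaks covered 31099 bp. The No gRNA only peaks numbered 9 with a −log10 q of at least 10, 18 among the 50000 strongest peaks and 18 with flanks of 500 kb. The All gRNA only peaks numbered 35 where each peak of a pair had to be covered to 50% or more, 33 with summits within 150 bp, 12 when both lists were held to a −log10 q of 5, 11 when the counted list was and 1 when that list was held to 10. The median log2 ratio of the pairs was −0.049 with the median of all pairs set to 1, 0.025 with that of the strength class set to 1, −0.039 by the authors' fold and −0.58 with no scaling. Without scaling 3 pairs were higher and 9 lower, and by the fold 1 was higher. With the strength class set to 1 and with no scaling, the ratio at the main start site was 0.822 and 0.523 for MYC and 0.959 and 0.610 for PVT1.

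With promoters of 1000 bp, MYC had 2 peaks in No gRNA, PVT1 had 8 in No gRNA and 7 in All gRNA, 13 genes of the window had a peak in both libraries, 0 in All gRNA alone and 1 in No gRNA alone. With 10000 bp PVT1 had 32 and 34 peaks and 0 genes had one in All gRNA only. With the canonical start site alone PVT1 had 1 in each library, and with a −log10 q of at least 5, 1 gene had a peak in All gRNA only.

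With 1 library per condition, differences between cultures cannot be told apart from those between the guides and the control. Peaks near the call limit are the least certain: the one-library peaks had a median pileup of 15, and All gRNA was the shallower library. Ratios at weak peaks have wide intervals. By the authors' fold none of the 3 peaks 74 to 64 kb upstream of MYC was past 2-fold, and with no scaling the one at chr8:127661398-127661652 was at 1.55.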
